A study of Homo sapiens with 6 samples.

Results

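The genes described here are the well expressed ZNF genes, the human genes whose symbol is ZNF followed by a number, as read in PC3 cells given heme. PC3 is an established prostate cancer line derived from a bone metastasis. Members are the symbols of that form, apart from 1 symbol that was left out, with a mean of at least 5 CPM over the control libraries, where CPM is a gene's read count scaled to a common library total. Of 33514 gene symbols in the count tables, 509 had such a name, and 290 of these reached the floor; a further 122 were tested below it, and 97 were too low to test. The members were thus chosen by their measured control levels, which describe them and are not a result. The members just inside the floor were ZNF112 at 5.01, ZNF324B at 5.02 and ZNF10 at 5.08 CPM, and the symbols just outside it were ZNF595 at 4.95, ZNF446 at 4.93 and ZNF443 at 4.84 CPM. All cells were grown in RPMI medium with 10% FBS. The groups were untreated control cells, cells with 50 µM heme in the medium for 2 h, and cells with the same dose for 4 h, with 2 libraries in each group and 6 in all. The title of the series concerns hemopexin, the plasma protein that carries heme, and the binding of heme to G-quadruplexes, which are stacked structures that guanine-rich DNA can form, at MYC. Nothing in the labels says that the 2 libraries of a group came from separate cultures, so every p-value below reflects the spread within these pairs of libraries only, part or all of which may be technical.

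ZNF genes mostly encode proteins with tandem C2H2 zinc fingers, short folds held by a zinc ion that read DNA, and in some cases RNA, base by base. The largest class carries a KRAB domain next to the fingers. KRAB recruits TRIM28, which brings the histone methyltransferase SETDB1 and heterochromatin proteins to the bound site, and many such proteins silence transposable elements. Many of the genes lie in clusters on chromosome 19. Others encode promoter-binding activators, chromatin partners, splicing and ribosome factors, or spindle proteins. Heme is the iron porphyrin of haemoglobin and cytochromes, and in free form it also acts as a signal that changes the activity of transcription factors such as BACH1.

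Each library held between 53129375 and 55537611 counts assigned to genes, and the lowest count of any member in any library was 150. For members with such low counts, counting error adds to the spread between libraries. The spread between the libraries of a group was wider with heme. The chi-square per gene between the 2 libraries of a group was 9.15 in the controls, 34.7 at 2 h and 23.0 at 4 h. The first 2 h library also stood apart in base composition. The mean GC content of its counted transcripts was 50.7%, against 50.0% in the other 2 h library and 49.5% to 50.1% in the control and 4 h libraries. Levels are given as CPM scaled by edgeR's TMM factors. Epithelial genes were high in every library, with KRT8 between 549 and 639 CPM. KLK3, which encodes prostate-specific antigen, had 0 counts in all of them. The haemoglobin genes HBB, HBA1 and HBA2 were at 0 in all libraries, and the leukocyte gene PTPRC was at most 0.094 CPM. Of 8 blood cell markers 1 was testable, CD14, which rose at 2 h (edgeR adjusted p = 0.0014), and the list summed to 0.518 and 0.852 CPM in controls, 2.70 and 2.02 at 2 h, and 0.810 and 1.07 at 4 h. Of 7 fibroblast and endothelial markers 3 were testable and 2 rose at 2 h, PECAM1 from 20.1 and 19.8 CPM to 40.1 and 32.6 and COL1A1 from 26.2 and 29 to 48.3 and 41.4. That list summed to 46.8 and 49.1 CPM in controls, 88.8 and 74.3 at 2 h, and 45.6 and 50.6 at 4 h, while the third testable gene, CDH5, was at most 0.329 CPM and not called, and COL1A2, DCN, LUM and VWF were at most 0.132 CPM. The part of other cell types in the ZNF values was not tested. In bulk RNA, fewer cells of a type and less RNA per cell cannot be told apart.

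After 2 h of heme, ZNF transcripts fell far more often than they rose. Of the 290 members, 106 (36.6%) were lower than in control cells and 18 (6.21%) were higher at an adjusted p under 0.05, from the quasi-likelihood test of edgeR, adjusted by the Benjamini-Hochberg method over all 16209 genes tested. Among the 10524 genes tested at the same floor, 23.1% were called lower and 14.8% higher. Among all genes tested, the shares were 15.8% lower and 15.9% higher. The median log2 fold change was −0.24 over the members and −0.06 over the 10234 other genes at the floor. In direction alone, 214 of the 290 members (73.8%) were below control, beside 57.8% of genes at the floor. For 178 members both 2 h libraries lay below both control libraries, and for 51 both lay above. Over genes at the floor the same was true of 43.5% and 28.9%. The ZNF symbols tested below the floor gave 9 lower and 8 higher of 122 (7.38% and 6.56%), with a median of −0.06. Calls below the floor have another background. Of the 2557 genes called lower among all tested, 2432 were at the floor, as were 1562 of the 2579 called higher. Falls were thus rare below the floor in general, and these counts do not show that the excess of falls ends there. Most changes were modest: 66 of the 106 falls were smaller than 1.5-fold, 7 members fell by 2-fold or more and 2 rose by as much, where 0.96% and 1.46% of genes at the floor did.

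Summed over the 290 members, the level was 9490.4 and 9209.6 CPM in the control libraries, 7755 and 8361 CPM at 2 h, and 9560 and 9327 CPM at 4 h. The 2 h libraries were the lowest pair and overlapped neither other group. As means these were 9350.0 ± 199 (SD, n = 2) in controls, 8058 ± 429 at 2 h and 9443 ± 165 at 4 h. The 2 h pair was also the lowest, with no overlap, in the summed level of the 10234 other genes at the floor. That sum was 1007860 and 993942 CPM in controls, 957007 and 946737 at 2 h, and 1013264 and 982567 at 4 h. In the sum of the members, the first 2 h library was the further of the pair from control. It was below the second in 202 of the 290 members, and in 92 of the 106 that fell. Without it, 65 members were called lower and 23 higher, while 17.8% of genes at the floor were called lower and 11.8% higher. The control libraries moved the count as well. It was 42 lower and 12 higher without the first of them, where 10.1% of genes at the floor were called lower and 6.77% higher, and 67 lower and 11 higher without the second, where the shares were 14.3% and 7.80%. In each of these fits the members' share of falls was above that of genes at the floor and their share of rises was below it.

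**Figure D1:**
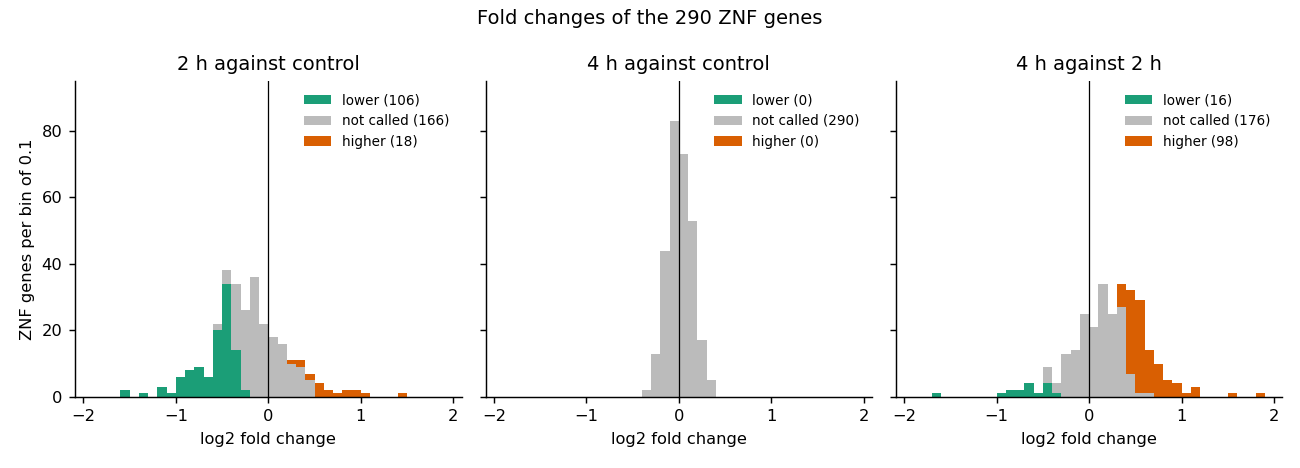
Histograms of the log2 fold change of the 290 ZNF genes in the 3 comparisons (x axis, log2 fold change; y axis, number of genes per bin of 0.1; stacked colours mark genes called higher, called lower or not called by edgeR). The 2 h distribution lies left of 0 with 106 genes lower and 18 higher, the 4 h distribution is narrow around 0 with none called, and 4 h against 2 h mirrors the first with 98 higher and 16 lower.

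The deepest fall was that of ZNF165, a SCAN-domain zinc finger gene known as a cancer-testis antigen (ENSG00000197279.3, chromosome 6, 28080975 to 28089563, GRCh38, plus strand). It stood at 31.0 and 28.6 CPM in controls, 7.63 and 12.4 at 2 h, and 40.1 and 30.2 at 4 h. The 2 h libraries were far below all 4 others, and the control and 4 h groups overlapped. The log2 change at 2 h was −1.57 (SE 0.19, edgeR adjusted p = 5.1e-05), a 2.98-fold fall. ZNF215, whose product joins SCAN and KRAB domains to its fingers (chromosome 11, 6926404 to 7001004, plus strand), went from 12 and 12.3 CPM to 3.17 and 5.26, and then to 13.1 and 11.5. Its change at 2 h was −1.52 on the log2 scale (SE 0.20, edgeR adjusted p = 8.3e-05), and the 2 h pair again lay alone below the rest. ZNF695 (chromosome 1, 246945547 to 247008093, minus strand) went from 14.7 and 16.6 CPM to 5.02 and 7.05, a log2 change of −1.38 (SE 0.17, edgeR adjusted p = 6.8e-05), and was back at 14.7 and 12.2 CPM at 4 h. ZNF165 shares exon positions with AL121944.1, ZNF215 with ZNF214, and ZNF695 with a ZNF670-ZNF695 readthrough gene, so part of their reads may have been left uncounted as ambiguous.

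A further 5 genes complete the 8 largest falls. ZNF441 stood at 11.9 and 10.5 CPM in controls against 3.84 and 6.41 at 2 h, with a log2 change of −1.13 (SE 0.20). ZNF367 stood at 17.0 and 13.3 against 5.27 and 8.79, with −1.11 (SE 0.20). ZNF586 stood at 29.2 and 29.4 against 12.8 and 14.4, with −1.10 (SE 0.13). These 3 had edgeR adjusted p-values between 4.0e-05 for ZNF586 and 0.00097 for ZNF441. ZNF484 went from 6.67 and 6.43 CPM to 2.64 and 3.73, and ZNF343 from 38.4 and 34.9 to 18 and 19, with log2 changes of −1.04 (SE 0.19) and −0.99 (SE 0.12). In all 8 genes the 2 h libraries lay below every control library, which the rule for naming them requires, and also below every 4 h library.

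**Figure D2:**
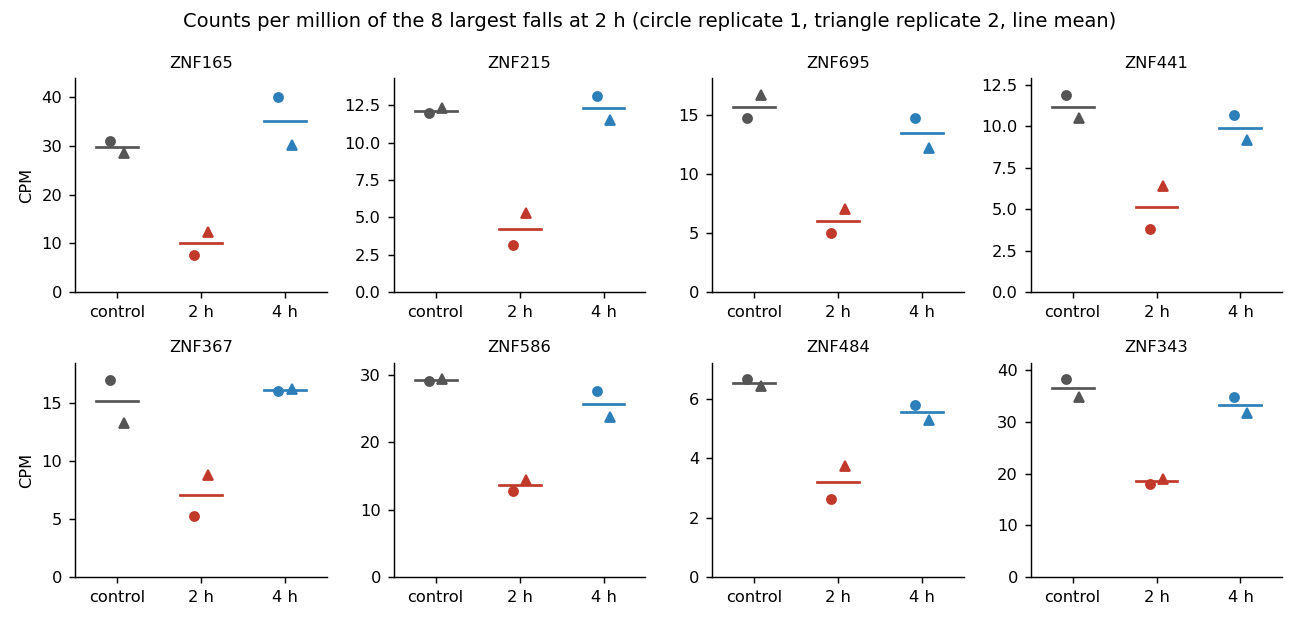
Levels of the 8 members with the largest fall at 2 h (1 panel per gene; x axis, group; y axis, TMM-scaled CPM from 0; circle, replicate 1; triangle, replicate 2; line, mean of the pair). In every gene the 2 points at 2 h lie below the 4 others, as for ZNF165 with 7.63 and 12.4 CPM at 2 h against 28.6 to 40.1 CPM in the rest.

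The rises were fewer and led by ZNF862, whose product pairs a zinc finger part with a domain related to hAT transposases (ENSG00000106479.10, chromosome 7, 149838367 to 149867479, plus strand). It stood at 5.17 and 5.23 CPM in controls, 15 and 13.8 at 2 h, and 4.67 and 4.78 at 4 h. Both 2 h libraries were well above all others, and the log2 change of 1.47 (SE 0.15, edgeR adjusted p = 1.4e-05) was a 2.77-fold rise. ZNF385A, which binds RNA and p53 (chromosome 12, 54369133 to 54391298, minus strand), stood at 10.3 and 11.5 CPM in controls, 26.5 and 17.7 at 2 h, and 11 and 14.1 at 4 h. Its 2 h libraries differed from each other but both exceeded the rest, with a log2 change of 1.02 (SE 0.18, edgeR adjusted p = 0.00090). ZNF219, a partner of SOX9 that binds G-rich DNA (chromosome 14, 21090046 to 21104722, minus strand), went from 5.13 and 6.23 CPM to 13.1 and 9.39 and then to 5.23 and 8.30. Its log2 change at 2 h was 0.98 (SE 0.22, edgeR adjusted p = 0.0037). ZNF362 (chromosome 1, 33256545 to 33300719, plus strand) went from 10.9 and 11.7 CPM to 24.0 and 19.7, a log2 change of 0.95 (SE 0.14, edgeR adjusted p = 0.00027), and returned to 10.9 and 12.4.

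Next in size came ZNF580, ZNF358 and ZNF524, with log2 changes of 0.88, 0.81 and 0.78 (SE 0.16, 0.15 and 0.16). ZNF358 went from 28.2 and 33.7 CPM to 59.4 and 49.2, and ZNF524, a telomere-binding protein gene, from 8.68 and 8.88 to 17.4 and 12.6. The eighth was ZNF274, at 13.7 and 11.9 CPM in controls, 21.7 and 19.5 at 2 h, and 11.5 and 11.2 at 4 h (log2 change 0.69, SE 0.13, edgeR adjusted p = 0.0017). ZNF274 protein recruits SETDB1 to the 3′ ends of ZNF genes, where the repressive mark H3K9me3 is laid down, so it is a regulator of the family itself. In each of the 8 the 2 h libraries lay above every control library, which the rule for naming them requires, and also above every 4 h library. ZNF580 overlaps ZNF581 and CCDC106. Of these, ZNF581, picked out after its values were seen, went from 52.9 and 56.9 CPM to 45.3 and 39.4 (log2 change −0.38, SE 0.11, edgeR adjusted p = 0.018). Values of CCDC106 are not given here, and the part of shared reads in the rise of ZNF580 was not tested. Exons of ZNF862, ZNF219 and ZNF524 also overlap other genes, and the counting strand is not given in the sources used here, so reads of antisense neighbours cannot be told apart from theirs. The other 10 rises were those of ZNF609, ZNF75D, ZNF76, ZNF213, ZNF75A, ZNF627, ZNF827, ZNF333, ZNF264 and ZNF281, between 0.65 and 0.28 on the log2 scale.

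**Figure D3:**
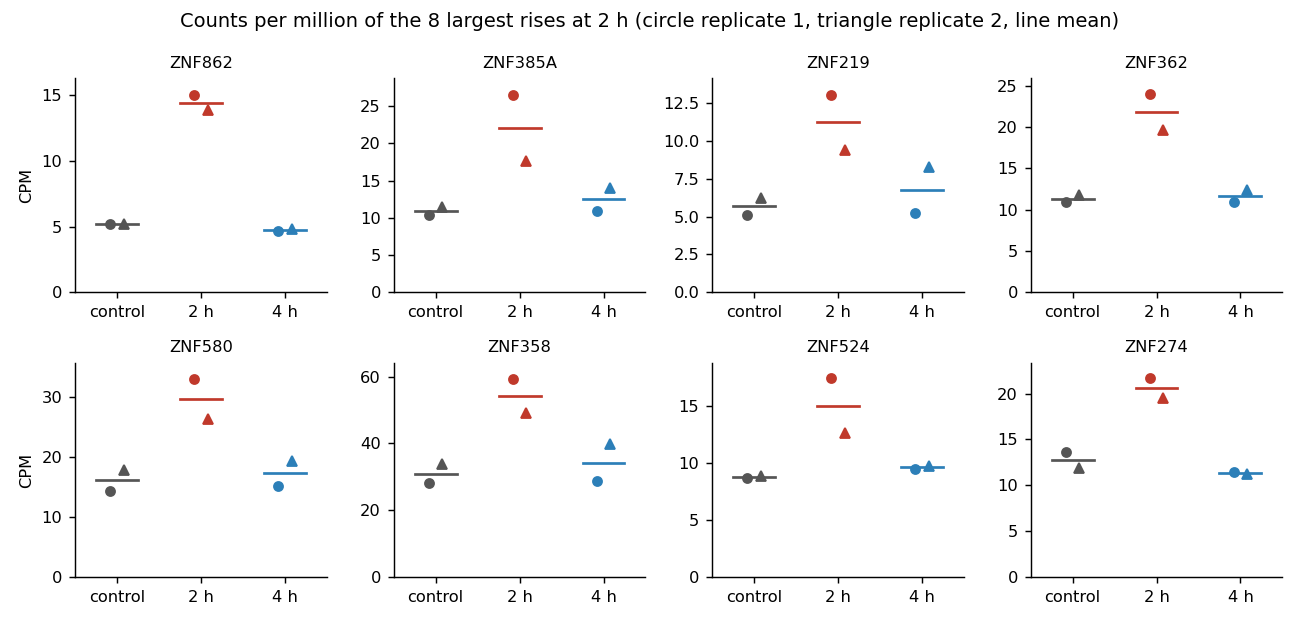
Levels of the 8 members with the largest rise at 2 h (1 panel per gene; x axis, group; y axis, TMM-scaled CPM from 0; circle, replicate 1; triangle, replicate 2; line, mean of the pair). The 2 h points are the highest in each gene, as for ZNF862 with 13.8 and 15 CPM against 4.67 to 5.23 CPM elsewhere.

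The 250 bases before the RefSeq start are shown for the 3 largest falls and the 3 largest rises that had an entry in the promoter table used here, because the series concerns heme at G-quadruplexes. Bases in capitals are those in any match to a G-quadruplex motif, defined as 4 runs of at least 3 G separated by loops of 1 to 7 bases, on either strand. Sequences are from RefSeq (GRCh38.p14), read 5′ to 3′ on the strand of the gene. The windows of the falls are chr11:6926176-6926425 on the plus strand for ZNF215, chr1:247008058-247008307 on the minus strand for ZNF695, and chr19:11766750-11766999 on the plus strand for ZNF441. Those of the rises are chr7:149838125-149838374 (plus) for ZNF862, chr14:21104723-21104972 (minus) for ZNF219, and chr1:33256242-33256491 (plus) for ZNF362.
ZNF215: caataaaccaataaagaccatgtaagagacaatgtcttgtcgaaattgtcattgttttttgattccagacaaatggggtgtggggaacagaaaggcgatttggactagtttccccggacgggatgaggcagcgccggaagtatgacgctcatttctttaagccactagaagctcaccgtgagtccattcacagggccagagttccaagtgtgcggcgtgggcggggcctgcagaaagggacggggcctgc
ZNF695: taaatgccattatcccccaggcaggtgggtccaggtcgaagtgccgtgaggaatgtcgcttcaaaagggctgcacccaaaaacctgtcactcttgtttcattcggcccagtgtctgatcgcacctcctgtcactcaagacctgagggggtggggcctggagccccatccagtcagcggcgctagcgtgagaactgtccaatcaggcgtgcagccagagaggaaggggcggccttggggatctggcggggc
ZNF441: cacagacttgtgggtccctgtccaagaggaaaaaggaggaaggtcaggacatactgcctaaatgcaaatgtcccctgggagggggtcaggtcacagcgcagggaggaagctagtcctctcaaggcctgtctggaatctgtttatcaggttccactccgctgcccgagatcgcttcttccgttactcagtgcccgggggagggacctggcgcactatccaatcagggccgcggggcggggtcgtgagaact
ZNF862: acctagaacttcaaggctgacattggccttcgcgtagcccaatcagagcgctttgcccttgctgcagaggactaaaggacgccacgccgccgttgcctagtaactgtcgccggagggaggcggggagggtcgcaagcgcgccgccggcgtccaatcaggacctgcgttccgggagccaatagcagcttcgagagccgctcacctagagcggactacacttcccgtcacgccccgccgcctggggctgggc
ZNF219: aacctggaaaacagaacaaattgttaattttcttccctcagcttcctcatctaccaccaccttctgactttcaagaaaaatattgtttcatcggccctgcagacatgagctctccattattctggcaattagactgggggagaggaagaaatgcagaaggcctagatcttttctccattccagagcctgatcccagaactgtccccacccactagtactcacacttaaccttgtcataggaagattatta
ZNF362: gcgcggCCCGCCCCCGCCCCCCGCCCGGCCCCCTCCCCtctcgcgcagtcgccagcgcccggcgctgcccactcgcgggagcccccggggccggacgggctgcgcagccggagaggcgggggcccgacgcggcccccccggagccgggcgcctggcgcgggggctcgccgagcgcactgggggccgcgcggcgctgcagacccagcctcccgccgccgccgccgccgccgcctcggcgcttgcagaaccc
Only the ZNF362 window held the motif. Its overlapping matches cover 32 bases of C runs, which places the G runs on the opposite strand. The 3 windows of the falls were 51.6%, 60.4% and 58.8% GC, and those of the rises 65.2%, 43.2% and 86.8%, in the order printed.

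Over all members with promoter entries, the motif was not common. Of 319 entries for 248 members, each of 250 bases before and 50 after a start, 20.4% held a G-quadruplex motif, against 24.9% of all 35116 entries and 34.1% of those of genes at the floor. Members that fell had it in 18 of 109 entries (16.5%), members that rose in 7 of 17 (41.2%), and members not called in 20.7%. For genes at the floor the shares were 30.2% for falls and 39.5% for rises. Counted per annotated gene with the motif in any entry, the shares were 19.5% of 87 members that fell and 35.7% of 14 that rose. Genes at the floor then had 36.4% and 51.3%. The order of risen members and risen genes at the floor thus depended on the unit counted. The ETS-type site CCGGAAGT, counted on both strands and chosen after the data were seen, was in 17.6% of member entries against 8.25% at the floor and 4.14% of all. It was in 12.8% of the entries of members that fell, 23.5% of those that rose and 19.7% of those not called, and the ZNF215 window above holds it. The core of the antioxidant response element that BACH1 and NRF2 bind, TGACNNNGC, was in 14.4% of member entries, 14.6% at the floor and 13.3% of all. The cyclic AMP response element TGACGTCA was in 4.08%, 2.93% and 1.85%. Neither was in the 17 entries of members that rose. These matches are letters in a window, entries of 1 gene can overlap each other, and no binding was measured in these files.

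Among members with a known role outside KRAB repression, each role group held genes that moved in both directions. The transcription factor list held 19 members, of which 7 were lower (36.8%), 3 higher (15.8%) and 9 not called at 2 h, with a median log2 change of 0.09. The share of rises was close to the 14.8% of genes at the floor, where 23.1% were lower. ZNF367, in the fall group above, and ZNF148 led the falls. ZNF148, which binds G-rich promoter elements, went from 49.4 and 41.4 CPM to 23.8 and 31.5 and back to 46.9 and 42.2 (log2 change −0.72, SE 0.14, edgeR adjusted p = 0.0018). Its close relative ZNF281, named after its values were seen, moved the other way, from 96.3 and 90.3 CPM to 109 and 117 (0.28, SE 0.10, edgeR adjusted p = 0.044). A second pair of relatives did so too. ZNF143, an activator that binds many housekeeping promoters, went from 32.6 and 31.5 CPM to 19.9 and 24.2 and then to 37.9 and 35.2 (−0.54, SE 0.13, edgeR adjusted p = 0.0051). ZNF76, which recognises the same kind of site, went from 23.6 and 21.5 CPM to 33.2 and 34.0 and then to 21.4 and 22.6 (0.57, SE 0.12, edgeR adjusted p = 0.0024). In each of these genes the 2 h libraries did not overlap the controls. The BTB-domain factor ZNF131 fell as well, from 63.3 and 59.9 CPM to 35.6 and 43.8 (−0.63, SE 0.12). The remaining falls of the list were ZNF462, ZNF146 and ZNF263. The call for ZNF143 was lost without the first control library (log2 change −0.52) and that for ZNF76 without the second (0.48).

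Of the 14 members listed as chromatin partners, 6 were lower (42.9%), 2 higher (14.3%) and 6 not called at 2 h, with a median of −0.08. Here too the rises were at the share of genes at the floor, 14.8%, and the falls stood beside 23.1%. ZNF292, a tumour suppressor in several cancers, went from 23.9 and 20.3 CPM to 9.43 and 14 and back to 21.9 and 18.8 (log2 change −0.91, SE 0.17, edgeR adjusted p = 0.0013). ZNF407 went from 19.2 and 17.7 CPM to 10.8 and 12.2 (−0.68, SE 0.13). ZNF451, a SUMO ligase, went from 46.5 and 47.6 CPM to 26.8 and 35.5 (−0.59, SE 0.13). These 3 had no 2 h library within the control range. ZNF462, which is also in the transcription list, stood at 38.6 and 40.2 CPM against 24.8 and 30.3 (−0.52, SE 0.13). ZNF518B, a partner of the methyltransferase G9a, was lower by a smaller margin (−0.39, SE 0.12, edgeR adjusted p = 0.027). Its call was lost without the first control library, the second, or the first 2 h library (−0.35, −0.45 and −0.23). In the opposite direction, ZNF609, which contacts the cohesin loader NIPBL, went from 34.9 and 35.8 CPM to 54.0 and 57.0 (0.65, SE 0.11, edgeR adjusted p = 0.00068). ZNF827, a telomere and nucleosome-remodelling partner named after its values were seen, rose too (0.43, SE 0.15).

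The 12 members that act on RNA, ribosomes or the spindle gave 6 falls (50.0%) and 1 rise (8.33%), with 5 not called and a median of −0.29, beside 23.1% and 14.8% of genes at the floor. ZNF207, known as BuGZ, carries the checkpoint protein BUB3 to kinetochores. It went from 282 and 269 CPM to 188 and 210 and back to 285 and 261 (log2 change −0.47, SE 0.10, edgeR adjusted p = 0.0022). ZNF330, a nucleolar protein gene, went from 89.1 and 82.7 CPM to 58.2 and 64.1 (−0.49, SE 0.10). ZNF326, part of a complex that links splicing to elongation by RNA polymerase II, went from 32.3 and 25.6 CPM to 13.3 and 19.8 (−0.81, SE 0.17). ZNF830, a spliceosome-associated factor, went from 15.1 and 16.3 CPM to 11 and 9.64 (−0.61, SE 0.15). In all 4 genes the 2 h libraries were below every control library. ZNF638, which helps silence unintegrated retroviral DNA, was at the edge of the threshold (−0.34, SE 0.12, edgeR adjusted p = 0.047) and its call was lost without any 1 library but the second at 2 h (−0.19 to −0.44). ZNF622, a ribosome maturation factor named after its values were seen, went from 155 and 155 CPM to 137 and 117 (−0.29, SE 0.11, edgeR adjusted p = 0.049). The calls for ZNF330 and ZNF830 were lost without the first and the second control library (−0.44 and −0.57). The rise in this list was that of ZNF385A. Without the first control library the 3 role lists had 4, 4 and 3 falls, in the order described (21.1%, 28.6% and 25%), beside 10.1% of genes at the floor in that fit.

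**Figure D4:**
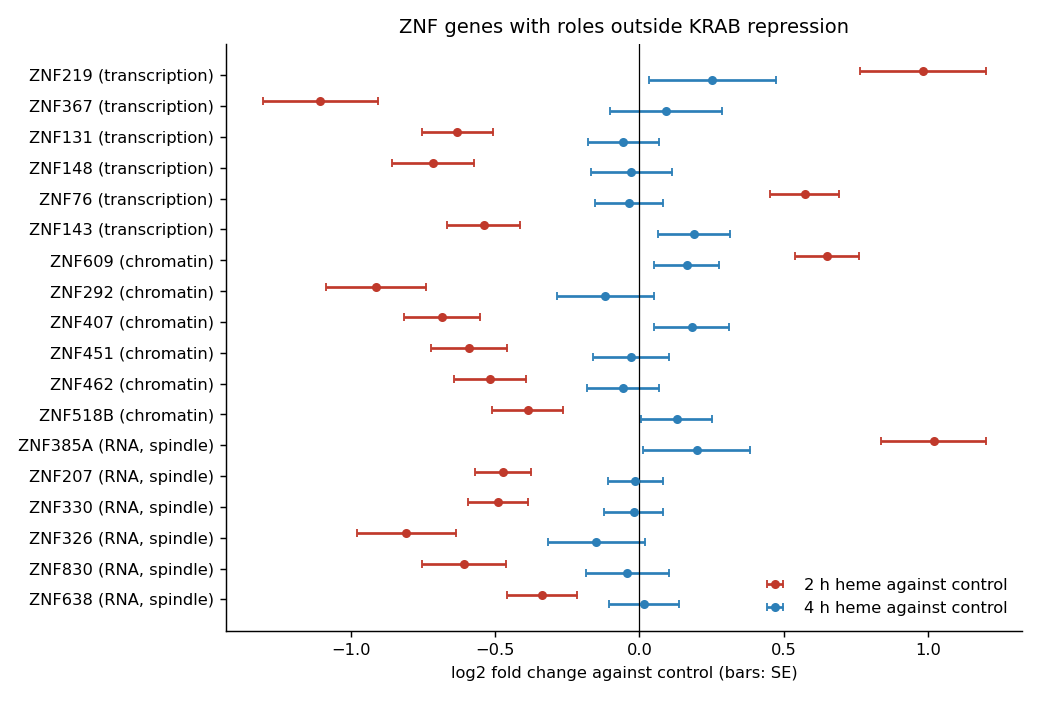
Log2 fold change at 2 h and at 4 h against control for the role-list members with values in the text (y axis, gene; x axis, log2 fold change; bars, 1 SE from edgeR). The 2 h points run from −1.11 for ZNF367 to 1.02 for ZNF385A, and the 4 h points lie near 0.

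KRAB repressors fell more often than they rose. Of the 24 members in the hand-made list of KRAB repressors, 12 were lower (50.0%) and 2 higher (8.33%) at 2 h, with a median log2 change of −0.34, beside 23.1% and 14.8% of genes at the floor. Without the first control library 5 were lower (20.8%) and 1 higher (4.17%), beside 10.1% and 6.77%. Without the first 2 h library 7 were lower (29.2%, beside 17.8%). A wider class was read from translated GENCODE 29 transcripts, with a residue pattern of the KRAB box chosen after the data were seen. It matched 131 of 289 members and 21 of the 24 listed ones, so it misses some KRAB genes. Of the 131, 52 (39.7%) were lower and 5 (3.82%) higher, with a median of −0.32. In sign, 113 of them (86.3%) were below control, beside 57.8% of genes at the floor. Of the 158 members without the pattern, 53 (33.5%) were lower and 13 (8.23%) higher, with a median of −0.12. Both classes lay above the 23.1% of falls at the floor. The order of the classes in falls was not stable. The shares lower were 38.2% with the pattern and 41.8% without it under the GC and length correction described below, 14.5% and 14.6% without the first control library, and 19.1% and 24.7% (25 and 39 genes) without the first 2 h library. The difference between the classes was not tested. ZNF248, which this pattern missed, is described with the 4 h values.

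The number of fingers ran alongside. Members with at least 10 C2H2 fingers numbered 150, of which 58 (38.7%) were lower and 3 (2.00%) higher, beside 23.1% and 14.8% of genes at the floor. The falls in this class numbered 19 without the first control library, 38 without the second and 31 without the first 2 h library (12.7%, 25.3% and 20.7%, beside 10.1%, 14.3% and 17.8% at the floor), and the rises 9 under the GC and length correction. The 48 members with 4 or fewer gave 15 lower and 6 higher (31.25% and 12.5%), and the 91 with 5 to 9 gave 32 and 9 (35.2% and 9.89%). By location, the 122 members on chromosome 19 gave 39 lower and 7 higher (32.0% and 5.74%), and the 167 elsewhere gave 66 and 11 (39.5% and 6.59%), so the share of falls was not higher on chromosome 19. Without the first control library 10 of the chromosome 19 members were lower (8.20%), and without the first 2 h library 18 (14.8%), both below the share at the floor in those fits (10.1% and 17.8%). The near-identical genes ZNF33A and ZNF33B changed by nearly the same amount, −0.45 (SE 0.12) and −0.45 (SE 0.13) on the log2 scale. Their levels are uncertain because reads can fit both, and how such reads were handled is not stated in the labels. The same holds for ZNF75A and ZNF75D. The 143 members with no exon overlap with another gene gave 51 lower and 10 higher, a share of falls of 35.7%.

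Base composition of the transcript moved with the change. The median GC content of the representative transcript was 42% for members that fell, 46.6% for those not called and 55.6% for those that rose. Genes at the floor showed the same order, at 44.1%, 49.0% and 55.4%. Spearman's rho between transcript GC and the 2 h log2 change was 0.41 across 289 members and 0.38 across 10486 genes at the floor, given as a description across genes that share the same 6 libraries. Split by GC, 28 of the 51 members under 40% GC were lower (54.9%) and 0 higher, against 37.1% and 3.92% of genes at the floor of that GC. At 40 to 45% GC, 44 of 95 members were lower (46.3%) and 5 higher (5.26%), against 32.2% and 7.86% at the floor. At 45 to 50% GC the members were close to the background in falls only, with 13 of 50 lower (26.0%) against 25.3%. In that class 1 member was higher (2.00%), against 12.2% at the floor. At 50% GC or more, 20 of 93 were lower and 12 higher, against 13.3% lower and 22.8% higher at the floor. The first 2 h library was also the library with the highest GC, as given above. Without it, the 4 classes had 13, 22, 10 and 19 falls from low to high GC, or 25.5%, 23.2%, 20% and 20.4%, beside 17.8% of genes at the floor, so most of the gradient of falls with GC rested on that library. Without the first control library the median log2 changes of the 4 classes were −0.36, −0.33, −0.17 and −0.05, beside −0.07 over genes at the floor. Without the second they were −0.49, −0.41, −0.21 and −0.08, beside −0.09.

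In a fit that corrects each library for a trend with GC and transcript length, 116 members were lower and 28 higher at 2 h, where 30.0% of genes at the floor were lower and 18.9% higher. The correction was added after the data were seen. Of the 106 falls, 93 were still called lower, and all 18 rises were still called. The correction moved falls between the GC classes: 20 members under 40% GC and 38 at 50% GC or more were lower, against 28 and 20 without it. The median over the members was −0.20 in that fit, and −0.06 at the floor. The part of library composition in the ZNF falls was not tested beyond this fit.

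**Figure D5:**
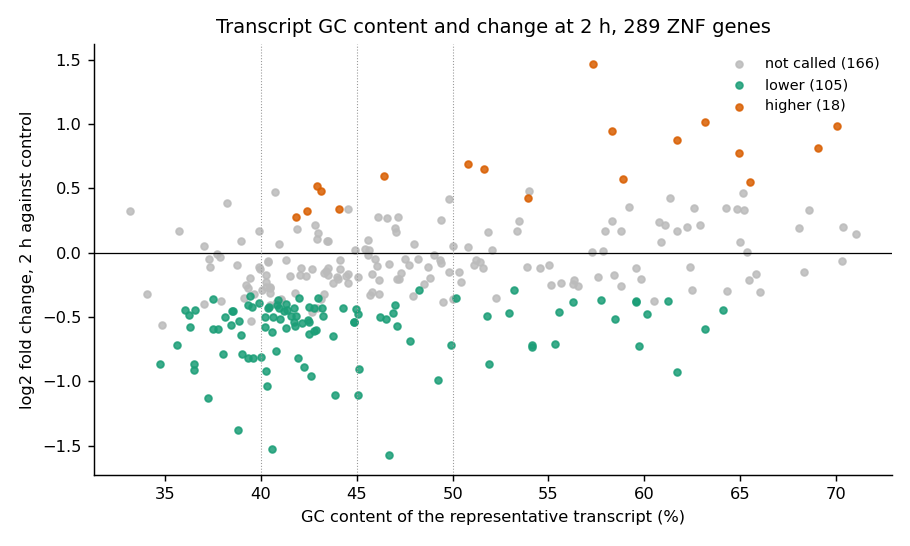
Log2 fold change at 2 h against transcript GC content for the members with an annotated transcript (x axis, GC in percent; y axis, log2 fold change; 1 point per gene, colours for genes called higher, called lower or not called by edgeR; dotted lines at 40, 45 and 50%). The quartiles of GC are 39.9% and 46.9% for members that fell, and 44.6% and 62.8% for those that rose.

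At 4 h no member passed the test against control. Of 290 members, 0 were higher and 0 lower with edgeR at an adjusted p under 0.05, and DESeq2 also gave 0 and 0. At an unadjusted p under 0.05, edgeR gave 5 higher and 2 lower, and DESeq2 gave 6 and 1. The background was low as well, with 0.038% of genes at the floor higher and 0.0095% lower, and 0.0247% and 0.00617% of all genes tested, so a count of 0 is not particular to the ZNF genes. The median log2 change of the members was 0.01, the extremes were −0.37 for ZNF30 and 0.39 for ZNF324B, and 274 of 290 lay within 0.25 of 0. The 106 genes that were lower at 2 h had a median of −0.03 at 4 h, and 100 of them lay within 0.25 of 0. The 18 genes that were higher at 2 h had a median of 0.06 at 4 h, and 17 lay within 0.25. A p that misses the threshold does not show that the levels were equal. The member with the smallest unadjusted p at 4 h was ZNF248, a KRAB zinc finger gene (chromosome 10, 37776526 to 37858106, minus strand). It stood at 128 and 116 CPM in controls, 64.3 and 73.9 at 2 h, and 151 and 151 at 4 h. All 3 groups were separate in ZNF248, with 4 h above control by 0.31 on the log2 scale (SE 0.10, edgeR adjusted p = 1.0).

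The comparison of 4 h with 2 h does not contrast the control libraries that chose the members, although they share its fit, scaling and estimate of spread. In it, 98 members were higher at 4 h and 16 lower, with a median log2 change of 0.26, where 20.4% of genes at the floor were higher and 12.9% lower. It shares its 2 h libraries with the first comparison, so the counts below are set side by side and are not independent. Of the 106 members lower at 2 h, 83 were higher at 4 h than at 2 h and the other 23 were not called. Of the 18 members higher at 2 h, 14 were lower at 4 h than at 2 h and 4 were not called, namely ZNF264, ZNF333, ZNF75D and ZNF827. A further 15 members not called at 2 h were higher at 4 h than at 2 h, and ZNF395 and ZNF414 were lower. The largest recoveries were those of ZNF165, at 1.81 (edgeR adjusted p = 1.7e-05), ZNF215, at 1.54, and ZNF367, at 1.20. ZNF695 followed with 1.15, and ZNF248 with 1.13 (edgeR adjusted p = 4.2e-06 for ZNF248). ZNF710 stood at 25.2 and 23.3 CPM in controls, 12.7 and 12.8 at 2 h, and 24.0 and 29.5 at 4 h, with a change of 1.07 from 2 h to 4 h. ZNF639, amplified in squamous cancers, stood at 111 and 106, 50.4 and 64.7, and 116 and 104 CPM, with 0.93. In the other direction, ZNF862 changed by −1.61 (edgeR adjusted p = 5.4e-06), ZNF362 by −0.91 and ZNF274 by −0.86. Without the first 4 h library fewer members were called in both directions. The share of genes at the floor in that fit is not given here, so the drop cannot be read as particular to the ZNF genes.

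Other zinc finger families named by symbol were small at this floor. Of 34 ZBTB genes, which join a BTB domain to zinc fingers, 9 were lower (26.5%) and 5 higher (14.7%) at 2 h, with a median of −0.14, which is close to the 23.1% and 14.8% of genes at the floor. Of 8 ZSCAN genes 1 was lower and 1 higher, of 5 ZKSCAN genes 2 were higher, and of 7 ZFP genes 2 were lower and 2 higher. The differences between these families and the ZNF genes were not tested.

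The partners through which KRAB proteins silence chromatin were followed with a list of 34 genes, of which 14 were lower (41.2%), 3 higher (8.82%) and 17 not called at 2 h, with a median of −0.20, beside 23.1% lower and 14.8% higher among genes at the floor. Without the first control library 4 were lower (11.8%), near the 10.1% of genes at the floor in that fit. The falls were 7 (20.6%, beside 14.3%) without the second control library and 8 (23.5%, beside 17.8%) without the first 2 h library. The scaffold TRIM28 itself did not pass, at 753 and 783 CPM in controls and 706 and 656 at 2 h (log2 change −0.17, SE 0.09, edgeR adjusted p = 0.16), and neither did SETDB1 (edgeR adjusted p = 0.74). The H3K9 methyltransferase gene SUV39H2 went from 20.9 and 18.5 CPM to 8.67 and 11.6 and back to 20.5 and 18.5 (−0.96, SE 0.15, edgeR adjusted p = 0.00041). UHRF1, which reads methylated DNA after replication, went from 45.2 and 46.3 CPM to 19.4 and 27.7 (−0.96, SE 0.15). MORC2, a compacting ATPase that works with the HUSH silencing complex, rose from 23.6 and 25.9 CPM to 48.9 and 43.4 and was back at 28.0 and 26.2 at 4 h (0.90, SE 0.12, edgeR adjusted p = 0.00010). TNRC18, a reader of H3K9me3 at endogenous retroviruses, rose from 48.5 and 48.5 CPM to 92.7 and 81.7 (0.85, SE 0.12).

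Among 21 genes for proteins that bind G-rich DNA, 7 of them members, 9 were lower (42.9%) and 3 higher (14.3%) at 2 h, beside 23.1% and 14.8% of genes at the floor. Without the first control library the median log2 change of this list was −0.30, beside −0.07 over genes at the floor. Without the second it was −0.34, beside −0.09. WT1, a zinc finger factor, went from 27.8 and 27.8 CPM to 12.4 and 14.5 (−1.04, SE 0.13, edgeR adjusted p = 4.7e-05). The loop factor CTCF went from 112 and 113 CPM to 81.0 and 81.5 (−0.47, SE 0.09, edgeR adjusted p = 0.0020). Both were back near control at 4 h, with log2 changes of −0.04 and 0.05. Of 20 zinc transport and metallothionein genes, 4 were lower at 2 h (20%) and the other 16 were not called, where 23.1% of genes at the floor were lower. The median log2 change of the zinc list was −0.10, beside −0.07 over genes at the floor. Without the second control library it was −0.09, beside −0.09, and without the second 2 h library −0.18, beside −0.10. The zinc exporter SLC30A1 went from 240 and 224 CPM to 116 and 161 and stood at 197 and 175 at 4 h (−0.74, SE 0.13). The metallothionein genes MT1X and MT2A changed by −0.52 and −0.33 on the log2 scale, and the transporter gene SLC30A7 by −0.44. At 4 h the log2 changes against control were −0.36 (SE 0.12) for MT1X, −0.26 (SE 0.09) for MT2A and −0.04 for SLC30A7. In that comparison 0 of the 20 genes were called. Of 11 genes listed as signs of RNA quality, 1 was higher, 2 lower and 8 not called at 2 h. The nuclear RNA NEAT1 rose (0.42, SE 0.14, edgeR adjusted p = 0.035) and the mitochondrial MT-CO2 fell (−0.25, SE 0.09, edgeR adjusted p = 0.039). MALAT1, also a nuclear RNA, went from 246 and 279 CPM to 132 and 154 at 2 h and 159 and 186 at 4 h (−0.87, SE 0.11, edgeR adjusted p = 7.7e-05), and the part of these genes' changes in the ZNF counts was not tested.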

How the data were processed

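Each of the 6 libraries came as a table of raw counts per gene symbol deposited by the authors, with Trizol extraction and an Illumina TruSeq library per the labels' protocols. The hg38 build and the tools STAR, Trimmomatic, deepTools and SAMtools are named per the submitters' processing notes. For the roles and versions of these tools, the counting strand and the annotation release, the sources used here give nothing. Per the file layout, the 5 summary lines are those of HTSeq. They held 5.48% to 6.88% of reads with no feature and 4.23% to 4.48% ambiguous, 0 reads were listed as aligned to several places, and they were left out of totals and tests.

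Genes passing edgeR's filterByExpr (minimum count 10) were tested in R 4.3.3 with edgeR 4.0.16 (TMM, quasi-likelihood fit over all 6 libraries, 3 residual degrees of freedom), with Benjamini-Hochberg adjustment over 16209 genes and a threshold of 0.05. The script was tested on simulated data first. The members, gene lists and tests were chosen with earlier results of these data known. The KRAB pattern, finger and GC classes and the motifs other than the G-quadruplex were chosen after the data were seen. Members with values are, per comparison, the 8 largest rises and the 8 largest falls among members called with groups that do not overlap, and up to 6 called members of each role list. Further names are marked where they appear.

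Gene positions, transcript GC and domain patterns came from GENCODE 29 (GRCh38), which 289 of 290 members matched by symbol. Promoter sequences came from RefSeq (GRCh38.p14), which 248 matched. Alternatives were DESeq2 1.42.0 (test and size factors), no count filter, a replicate block, only the 2 groups compared, a test beyond 1.5-fold, other CPM floors, leaving out each library and, added after the data were seen, a GC and length correction, a floor set in the 4 h libraries, and only members with no exon overlap.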

Additional observations from a re-analysis of the deposited data

Results flagged for a closer look

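The 2 h and 4 h effects of heme differed by the contrast of 4 h with 2 h in edgeR for 98 members that were higher at 4 h and 16 that were lower. Among the genes named for their size, those above their 2 h level at 4 h were ZNF165 by 1.81 on the log2 scale, ZNF215 by 1.54, ZNF367 by 1.20, ZNF695 by 1.15, ZNF248 by 1.13, ZNF710 by 1.07, ZNF441 by 0.95 and ZNF639 by 0.93. Those below it had log2 values of −1.61 for ZNF862, −0.91 for ZNF362, −0.86 for ZNF274, −0.82 for ZNF385A, −0.78 for ZNF580, −0.73 for ZNF219, −0.67 for ZNF358 and −0.64 for ZNF524. The calls for ZNF441, ZNF385A, ZNF580, ZNF219, ZNF358 and ZNF524 were lost without the first 4 h library, with the same sign. Each group has 2 libraries, and times were not sampled between or beyond these.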

How the results depend on the processing

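With 2 libraries per group, the number of calls rested on single libraries. Leaving out each library in turn gave 11 to 23 members higher and 42 to 136 lower at 2 h, and 45 to 136 higher and 6 to 21 lower at 4 h against 2 h, while 4 h against control stayed at 0 and 0. A test for changes beyond 1.5-fold (glmTreat) left 1 higher and 6 lower at 2 h, and 8 higher and 1 lower at 4 h against 2 h. Shares of genes at the floor are not given in this paragraph. Its counts therefore do not set the members apart from other genes. The GC and length correction raised the rises at 2 h to 28 and the falls from 2 h to 4 h to 30. Restricting to the 143 members with no exon overlap gave 10 higher and 51 lower at 2 h and 44 higher and 8 lower at 4 h against 2 h, in a smaller set of members. Whether same-numbered libraries belong together is not stated in the labels. The differences between replicates 1 and 2 had correlations across genes of −0.09, 0.07 and −0.02 between groups. Such values cannot decide it, because shifts of single libraries can hide a shared effect. A replicate block gave 17 higher and 97 lower at 2 h, 94 and 16 at 4 h against 2 h, and 0 and 0 at 4 h against control. DESeq2, DESeq2's size factors, no count filter, only the 2 groups compared, and the other CPM floors kept every count within 1.5 times. A floor of 5 CPM was also set in the 4 h libraries. Their levels are not contrasted at 2 h, but they share the scaling and estimate of spread of that fit. With this floor 17 members were higher and 107 lower at 2 h. Over the 34 named members, 792 of 884 recomputed values kept their side of the threshold, 92 lost it and 0 changed sign. The cause of these shifts was not tested. Strand, replicate origin and shared reads limit single genes as stated with them.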
